A study of Mus musculus with 21 samples.

Results

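The brush border is the carpet of microvilli on the apical face of absorptive enterocytes, and the hydrolases anchored in it carry out the last steps of digestion of sugars and peptides. Described here are 9 genes of 37310 in the files, chosen by name as brush border digestive hydrolases. They are Sis (sucrase-isomaltase), Lct (lactase), Treh (trehalase), Alpi (intestinal alkaline phosphatase), Anpep (aminopeptidase N), Enpep (glutamyl aminopeptidase), Dpp4 (dipeptidyl peptidase 4), Mep1a and Mep1b (the alpha and beta subunits of the metalloprotease meprin). These genes are switched on as cells leave the crypt and mature on the villus, and their proteins are used as signs of enterocyte differentiation. In cells sorted for Lgr5, a marker of crypt stem cells, their RNA is therefore a measure of enterocyte-type transcript in a sort that was meant for stem cells.

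RNA was sequenced from 21 bulk libraries of sorted intestinal Lgr5 cells in 7 groups of 3, and the study asked how diet acts on these cells. Every mouse carried Lgr5EGFPcre-ERT2, ate a purified diet between weaning and 3 months of age, and was 3 months old. NWD1VitD mice ate NWD1 with vitamin D at 2.3 IU/g, and AIN_VdrKO mice ate AIN76A and were labelled as vitamin D receptor knockouts. AINlowVitD mice ate AIN with vitamin D at 0.11 IU/g, and NWD1Ca mice ate NWD1 with calcium at 7.0 mg/g. NWD2 and NWD1 mice ate diets of those names, and AIN mice ate the AIN76A control diet. The amounts are written in the labels as per g of body weight. What NWD1 and NWD2 contain is not stated there. NWD1Ca held only females and AIN_VdrKO only males, and the other 5 groups held both sexes. AIN 1 and AIN 2 came from females and AIN 3 from a male. In NWD1 and in NWD2 the first and second libraries came from males and the third from a female. The cells came from dispersed crypts, and the sort took the brightest 2 to 3% of fluorescent cells. EGFP in these mice reads the Lgr5 promoter, and the labels name no other marker for the sort.

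Counts on genes ranged from 19889795 to 115435120 per library. On the first principal component the libraries fell into sets: AIN, NWD1 and NWD2 lay at or below -38.6, the NWD1Ca, NWD1VitD and AINlowVitD libraries at or above 71.2, and the AIN_VdrKO libraries between -21.9 and 43.8. In a comparison across these sets, set and diet or genotype cannot be told apart. Within the set of AIN, NWD1 and NWD2, the libraries AIN 1, AIN 2 and NWD1 1 lay at -42.6 to -38.6. AIN 3, NWD1 2, NWD1 3 and every NWD2 library lay at or below -90.0. In comparisons among these groups, this division partly coincides with diet. The labelled cell type was checked on its markers. Lgr5 was at 0.998 to 26.7 TPM (a level corrected for gene length and library total) and Olfm4, another stem cell gene, at 208 to 11403 TPM. Genes of other epithelial cells were abundant too: 7 goblet cell markers summed to 19103 to 105190 TPM and 16 enterocyte genes outside the hydrolases to 6305 to 96120 TPM. Of 10 leukocyte markers, 8 were abundant enough to test, and all 10 summed to at most 47.5 TPM. Cd3e, which defines T cells, had 0 to 39 counts in a library. In bulk libraries, fewer cells of a type and less RNA per cell cannot be told apart. Vdr, the gene targeted in AIN_VdrKO, was at 72.0, 139.9 and 102 TPM in AIN_VdrKO libraries, against 105, 127 and 329.98 TPM in AIN libraries. The change in Vdr was -0.56 ± 0.37 on the log2 scale (SE, n = 3 each; adjusted p = 0.348 with edgeR). A count over the whole gene need not fall when part of a gene is deleted, so it does not check the genotype label.

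The promoters of 3 members are shown because these genes stood apart in the results. Sis had the largest fitted fall of the members in NWD1 against AIN. Lct relative to Sis, and Mep1a relative to Mep1b, were lowest in AIN_VdrKO. Each stretch is the 250 bases before the start of the gene in RefSeq (GRCm38.p6), read 5′ to 3′ on the gene's own strand. The stretches lie at chr3:72967864-72968113 for Sis, chr1:128328319-128328568 for Lct and chr17:43502774-43503023 for Mep1a, each on the minus strand. Capitals mark the word ATTAAC and the word TTTAT, the core of sites for the CDX factors, each on either strand. TTTAT can also be part of a TATA box.
Sis: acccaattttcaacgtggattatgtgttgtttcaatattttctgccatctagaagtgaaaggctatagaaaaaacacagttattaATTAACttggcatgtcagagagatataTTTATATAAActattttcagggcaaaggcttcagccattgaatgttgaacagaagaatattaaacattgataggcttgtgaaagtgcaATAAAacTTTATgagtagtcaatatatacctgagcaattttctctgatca
Lct: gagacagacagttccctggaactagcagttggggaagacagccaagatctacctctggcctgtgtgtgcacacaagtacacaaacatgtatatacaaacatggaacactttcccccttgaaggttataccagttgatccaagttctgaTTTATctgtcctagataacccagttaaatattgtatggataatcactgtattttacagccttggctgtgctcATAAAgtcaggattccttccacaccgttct
Mep1a: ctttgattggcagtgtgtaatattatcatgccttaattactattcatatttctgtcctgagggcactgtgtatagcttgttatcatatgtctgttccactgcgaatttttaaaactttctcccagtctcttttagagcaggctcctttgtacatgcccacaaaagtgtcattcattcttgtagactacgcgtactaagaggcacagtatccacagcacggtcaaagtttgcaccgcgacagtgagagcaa
ATTAAC was found in 6.47% of 32536 RefSeq promoters of this length, and among 8 members with an entry it was found in Sis only. TTTAT was found in 37.2% of promoters and in 5 of the 8 members, Sis, Lct, Alpi, Dpp4 and Enpep. GATA-type AGATAA (9.97% of promoters) was found in Lct and Dpp4, and the nuclear receptor core AGGTCA (14% of promoters) in Treh. None of these 4 words was found in the Mep1a stretch. A match is a description of letters, not a bound site.

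All 9 hydrolases were detected in all 21 libraries, with 107 counts (Mep1a) as the lowest value and 232920 (Sis) as the highest. By mean TPM within a group, Sis was the most abundant member in AIN_VdrKO, AINlowVitD, NWD1Ca and AIN libraries, and Alpi in NWD1VitD, NWD2 and NWD1 libraries. Over all libraries the median was 326 TPM for Sis, 278 TPM for Alpi and 103 TPM for Mep1b, and 26.2 TPM for Lct and 11.2 TPM for Mep1a at the other end. The summed level of the 9 genes ran between 222 TPM in NWD1 1 and 4998 TPM in NWD2 3. The spread between libraries was widest for Lct, with an SD of 1.91 in log2 CPM (counts scaled to the library total, with totals adjusted by TMM), and narrowest for Dpp4, with an SD of 0.77. CPM values are used below to compare groups, because the TPM values place the libraries of NWD1Ca, NWD1VitD and AINlowVitD lower across most genes.

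**Figure D1:**
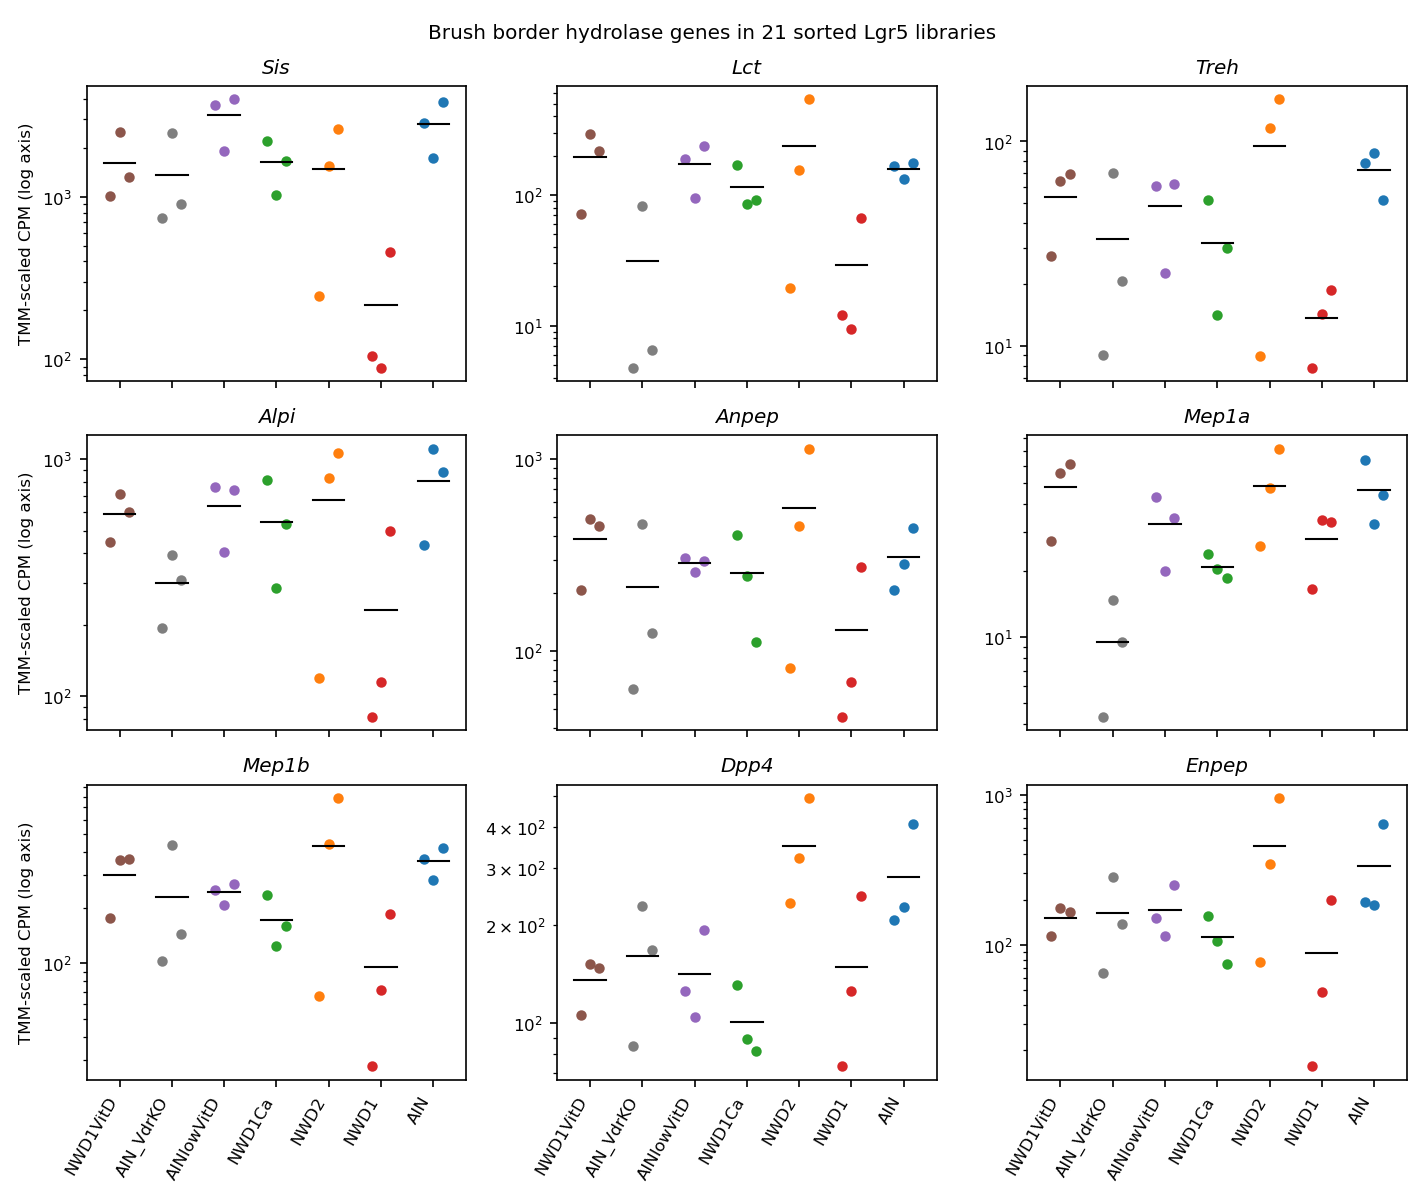
TMM-scaled CPM (log axis) of each hydrolase gene in every library, with 3 points and a line at the mean for each of the 7 groups. NWD1 has the lowest mean for Sis, with libraries at 88.7 to 458 CPM and NWD2 1 within that range at 243 CPM. AIN_VdrKO libraries are the lowest for Mep1a, at 4.32 to 14.7 CPM.

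NWD1 set beside AIN asks what this modified diet does to the sorted cells. Sis, which splits sucrose and the branch points of starch, was at 105, 88.7 and 458 CPM in NWD1 libraries, against 2858, 1732 and 3846 CPM in AIN libraries. The groups did not overlap, and the highest NWD1 library stayed below the lowest AIN library. Sis fell by 3.81 ± 0.75 on the log2 scale (SE, n = 3 each; adjusted p = 0.0274, edgeR's quasi-likelihood test with Benjamini-Hochberg adjustment over 16050 genes), which is 14.1-fold lower. It was the 1 member of 9 past the threshold of 0.05, where 0.766% of all tested genes passed, and 0.66% as lower.

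The other disaccharidases had lower values in NWD1 libraries as well, without passing the test. Lct, which splits milk sugar, was at 12.1, 9.47 and 66.3 CPM in NWD1 libraries, against 167, 132 and 176 CPM in AIN libraries. Treh, which splits the sugar of insects and fungi, was at 7.84, 14.4 and 18.8 CPM in NWD1 libraries, against 78.3, 87.4 and 51.8 CPM in AIN libraries. Neither overlapped between the groups. Mep1b, the membrane-bound meprin subunit, was at 27.5, 71.9 and 185 CPM in NWD1 libraries, against 367, 281 and 419 CPM in AIN libraries, again with no overlap. With Sis these make 4 members whose groups did not overlap, all lower, where 10.9% of all tested genes were lower without overlap.

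Alpi, Anpep, Enpep, Dpp4 and Mep1a overlapped. Alpi, which removes phosphate from lipopolysaccharide and nucleotides, was at 81.5, 115 and 497 CPM in NWD1 libraries, against 434, 1108 and 884 CPM in AIN libraries. Anpep, which trims amino acids from the ends of peptides, was at 45.4, 69.3 and 273 CPM in NWD1 libraries, against 209.6, 283 and 439.9 CPM in AIN libraries. Enpep, which removes acidic residues, was at 15.5, 48.7 and 199 CPM in NWD1 libraries, against 193, 184 and 634 CPM in AIN libraries. In these 3 genes and in Dpp4 only the third NWD1 library, the one from a female, reached into the AIN range. In Mep1a the second and the third did, at 34.0 and 33.2 CPM, against 32.5 CPM in AIN 2. Fitted changes of all 9 members lay below 0, with a median of -1.94, where 53.1% of all tested genes lay below 0 with a median of -0.04. An unadjusted p under 0.05 was found for 7 members, and for 15.2% of all tested genes. The fitted change smallest in size was that of Mep1a, at -0.65.

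Genes with related roles had values on the same side. Of 13 other tested hydrolases of the luminal surface, 0 passed with edgeR, 8 had an unadjusted p under 0.05 and the median change was -2.13. Tmprss15, enteropeptidase, had no count in the NWD1 libraries and 0 to 312 counts in AIN libraries. With that gene set at the bound a floor of 3 counts per library gives, the median was also -2.13. Of 12 carriers of sugars, peptides and amino acids, 0 passed, 9 had an unadjusted p under 0.05 and the median was -1.83. Of 16 enterocyte genes outside the hydrolases, 3 fell, among them Khk, ketohexokinase (-2.82 ± 0.46, adjusted p = 0.0190), and Mogat2, an enzyme of triglyceride synthesis (-2.35 ± 0.54, adjusted p = 0.0478), on the log2 scale with edgeR. The 12 Lgr5 stem cell markers lay the other way, with 12 of 12 above 0, a median of 1.21, 7 with an unadjusted p under 0.05 and 0 past the threshold. Of 12 transcription factors of the intestine 0 passed, with a median of -0.23, and of 10 genes of brush border structure 0 passed, with a median of -0.57. The enterocyte genes summed to 6305 to 13463 TPM in NWD1 libraries, against 40214 to 55980 TPM in AIN libraries, and the stem cell markers to 6213 to 10427 TPM in NWD1 libraries, against 1528 to 4078 TPM in AIN libraries. Their part in the change of the hydrolases was not tested.

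The call of Sis, more than its size, depended on single libraries. Spike-in RNA took 24.7, 20.4 and 5.24% of counts in NWD1 libraries, against 5.18, 0.0000135 and 1.36% in AIN libraries, and without the pair of NWD1 libraries above 20% the change of Sis was -2.79 ± 1.1 (adjusted p = 0.256, edgeR, the spread of the lone NWD1 library being taken from the other groups). Without AIN 1 the change was -3.89 (adjusted p = 0.0748, edgeR), without AIN 3 it was -2.99 (adjusted p = 0.0695), without NWD1 1 it was -3.56 (adjusted p = 0.0826) and without NWD1 2 it was -3.49 (adjusted p = 0.127).

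**Figure D2:**
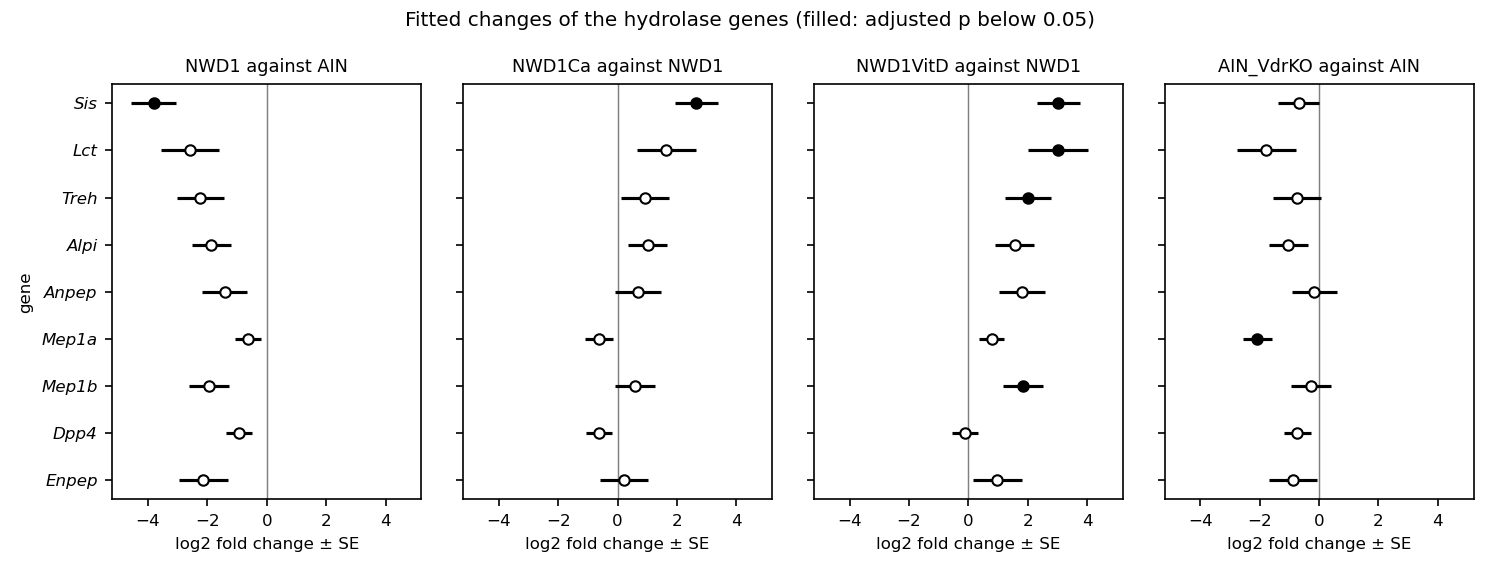
Fitted log2 fold changes (horizontal axis, bars are SE) of the 9 hydrolases in 4 comparisons, with filled points for an adjusted p below 0.05. Sis is filled in the 3 comparisons that involve NWD1, at -3.81, 2.66 and 3.03, and Mep1a in AIN_VdrKO against AIN, at -2.08.

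The fitted fall of Sis on NWD1 was the largest of the members, at -3.81 ± 0.75. Lct was at -2.58 ± 0.98 and Treh at -2.24 ± 0.79 (log2 scale, edgeR), and the difference between these falls was not tested. As a share of the summed TPM of the 9 genes, which does not depend on how libraries are scaled, Sis made up 16.3, 8.63 and 13.1% in NWD1 libraries, against 44.6, 24.9 and 39.0% in AIN libraries. The other 18 libraries of the study lay at 18.4% or more, so the NWD1 libraries were below each of them. NWD2 libraries came next, at 18.4, 21.5 and 20.99%, and AINlowVitD libraries were highest, at 47.4, 42.6 and 48.0%. The ratio of Sis to Anpep in TPM was 1.39, 0.771 and 1.01 in NWD1 libraries, against 8.21, 3.68 and 5.27 in AIN libraries. Its lowest value in the 18 other libraries was 1.3999, in NWD2 3, close to that of NWD1 1. The ratio of Sis to Lct was 8.66, 9.31 and 6.87 in NWD1 libraries, against 17.0, 13.1 and 21.7 in AIN libraries. NWD2 libraries, at 4.86 to 12.5, and NWD1VitD libraries, at 6.05 to 14.1, spanned the NWD1 values. The share and the ratios were chosen after the values were seen and are given as a description, with no test.

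**Figure D3:**
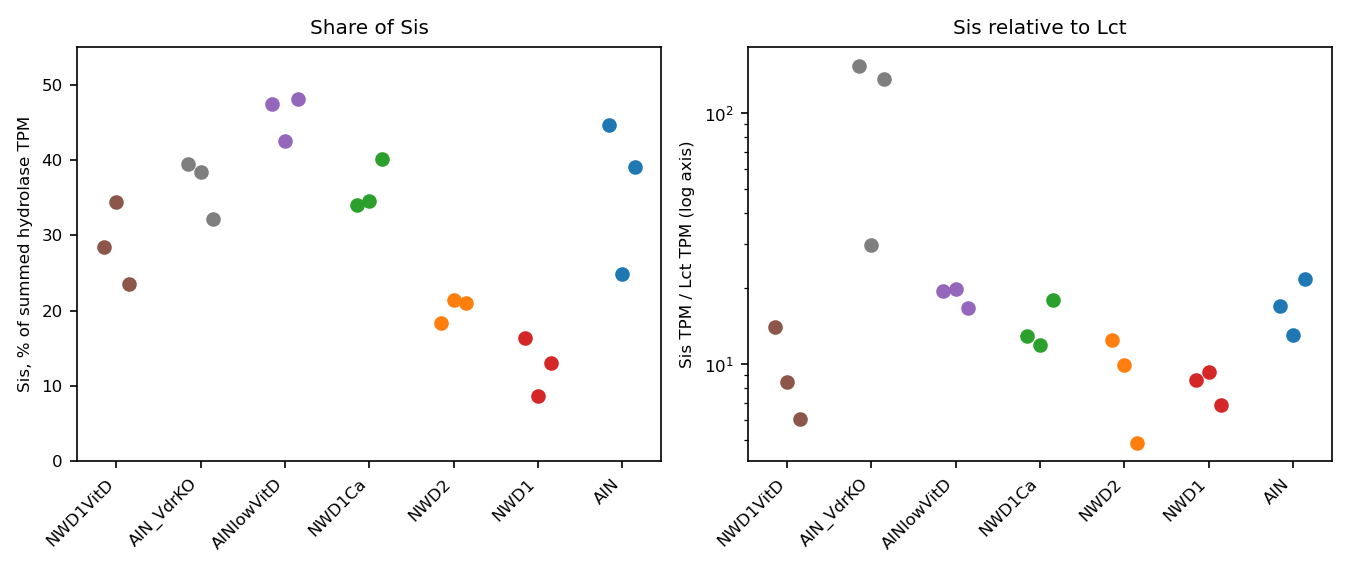
Left, Sis as a percent of the summed TPM of the 9 hydrolases, and right, the ratio of Sis to Lct in TPM (log axis), for each library of the 7 groups. NWD1 libraries are lowest on the left, at 8.63 to 16.3%, and AIN_VdrKO libraries highest on the right, at 29.9 to 154.

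NWD2 set beside AIN gave no call among the hydrolases. With edgeR 0 of 9 members passed, where 0% of all tested genes did, and 0 had an unadjusted p under 0.05. DESeq2 and limma also called 0 members. Sis had the smallest p, with a change of -0.97 ± 0.67 (adjusted p = 0.749, edgeR). It was at 243, 1545 and 2634 CPM in NWD2 libraries, against 2858, 1732 and 3846 CPM in AIN libraries. NWD2 1 was the lowest NWD2 library in all 9 members: Lct, for example, was at 19.4 CPM there and at 155 and 539 CPM in the other NWD2 libraries. The fitted changes of the members had a median of 0.28, with Sis the lowest.

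NWD2 set beside NWD1 compares both modified diets. With edgeR 0 of 9 members passed, where 0.00623% of all tested genes did, while 8 had an unadjusted p under 0.05, where 10.7% of all tested genes did. DESeq2 called 3 members and 2.14% of all tested genes, and limma called 0 members and 0.168%. All 9 fitted changes were above 0, with a median of 2.21, where 50.2% of all tested genes were above 0. Sis had the smallest p, at 2.85 ± 0.71 (adjusted p = 0.125, edgeR), and passed without NWD2 1 (3.31 ± 0.65, adjusted p = 0.0176) and without NWD1 3 (3.73 ± 0.84, adjusted p = 0.0348). No member was free of overlap, where 8.72% of all tested genes were, and NWD2 1 lay within the range of the NWD1 libraries for all 9 members. This comparison and both of those against AIN share libraries.

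NWD1VitD set beside NWD1 asks what added vitamin D does on that diet, across the sets of libraries. Sis rose, at 1005, 2498 and 1329 CPM in NWD1VitD libraries, against 105, 88.7 and 458 CPM in NWD1 libraries, a log2 change of 3.03 ± 0.72 (adjusted p = 0.00299, edgeR). Lct rose by 3.01 ± 1.00 (adjusted p = 0.0226, edgeR), at 70.9, 295 and 218 CPM in NWD1VitD libraries, against 12.1, 9.47 and 66.3 CPM in NWD1 libraries. Treh rose by 2.01 ± 0.77 (adjusted p = 0.0439, edgeR), at 27.6, 64.4 and 69.4 CPM in NWD1VitD libraries, against 7.84, 14.4 and 18.8 CPM in NWD1 libraries. In these 3 disaccharidases the groups did not overlap, where 25% of all tested genes were higher without overlap. Mep1b rose by 1.84 ± 0.67 (adjusted p = 0.0351, edgeR), with overlap: it was at 176, 363 and 365 CPM in NWD1VitD libraries, against 27.5, 71.9 and 185 CPM in NWD1 libraries. So 4 of 9 members passed as higher, where 19.9% of all tested genes passed as higher and 40.5% in either direction.

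Among the members that did not pass, Alpi was at 448, 715 and 597 CPM in NWD1VitD libraries and 81.5, 115 and 497 CPM in NWD1 libraries. Dpp4, which cuts dipeptides and incretin hormones, was at 106, 152 and 148 CPM in NWD1VitD libraries and 73.4, 126 and 246 CPM in NWD1 libraries, and had the lowest fitted change, at -0.11. The calls of Lct, Treh and Mep1b depended on single libraries. Lct missed the threshold without NWD1 1 (adjusted p = 0.0748, edgeR), NWD1 2 (0.0943), NWD1VitD 2 (0.0553) or NWD1VitD 3 (0.0722). Treh missed it without NWD1 1 (adjusted p = 0.123, edgeR), NWD1 2 (0.0817), NWD1 3 (0.0898), NWD1VitD 2 (0.0835) or NWD1VitD 3 (0.158). Mep1b missed it without NWD1 1 (adjusted p = 0.129, edgeR), NWD1 2 (0.0955), NWD1VitD 2 (0.0669) or NWD1VitD 3 (0.123). Sis passed whichever library was left out, but did not pass without both NWD1 libraries high in spike-ins (1.98 ± 1.05, adjusted p = 0.163, edgeR), and no member passed there.

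Other hydrolases rose beside them: 6 of 13 passed as higher and 0 as lower, with a median of 2.36. They included Mgam, the maltase-glucoamylase that works beside Sis (2.50 ± 0.61, adjusted p = 0.00357), Asah2, a ceramidase (3.75 ± 0.95, adjusted p = 0.00460), Ace (2.80 ± 0.84, adjusted p = 0.0130) and Dpep1, a dipeptidase (2.48 ± 0.75, adjusted p = 0.0134), all with edgeR. Of 12 carriers 5 rose and 1 fell. The peptide carrier Slc15a1 (3.09 ± 0.85, adjusted p = 0.00792), the glucose carrier Slc2a2 (2.66 ± 0.81, adjusted p = 0.0139) and the imino acid carrier Slc6a20a (1.87 ± 0.68, adjusted p = 0.0351) were among the rises, and the glutamate carrier Slc1a1 fell by 1.25 ± 0.40 (adjusted p = 0.0176). Of 16 enterocyte genes 10 rose, led by the fatty acid binding protein Fabp1 (5.58 ± 0.66, adjusted p = 1.6e-05), and of 12 stem cell markers 6 fell, among them Lgr5 (by 1.71 ± 0.50, adjusted p = 0.0117). Paneth cell markers also rose (3 of 7), and their summed level was 37721 to 123832 TPM in NWD1VitD libraries, against 17284 to 41974 TPM in NWD1 libraries. Of 7 goblet cell markers 2 rose, of 7 enteroendocrine markers 2 rose and 1 fell, and of 12 transcription factors 5 rose and 3 fell. Of 3 tested distal markers 1 rose past the threshold, Fabp6, the ileal bile acid binding protein (5.01 ± 0.99, adjusted p = 0.000757, edgeR). With Fabp6 included, the distal markers summed to 168 to 1616 TPM in NWD1VitD libraries, against 37.7 to 225 TPM in NWD1 libraries. Of 5 proximal markers 1 rose. The part of these cell types and of gut region in the change was not tested.

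NWD1Ca set beside NWD1 asks the same of added calcium, again across the sets. All NWD1Ca libraries came from females, while NWD1 1 and NWD1 2 came from males. Sis rose by 2.66 ± 0.73 (adjusted p = 0.0106, edgeR), at 2209, 1021 and 1668 CPM in NWD1Ca libraries, against 105, 88.7 and 458 CPM in NWD1 libraries. Lct was at 171, 85.7 and 91.9 CPM in NWD1Ca libraries and 12.1, 9.47 and 66.3 CPM in NWD1 libraries, without passing. In these 2 genes the groups did not overlap, where 26.1% of all tested genes were higher without overlap. Sis was the 1 member that passed, where 15.6% of all tested genes passed as higher and 30.5% in either direction. The median change of the members was 0.69. Without both NWD1 libraries high in spike-ins the change of Sis was 1.82 ± 1.02 (adjusted p = 0.187, edgeR). Mgam rose as well (2.16 ± 0.64, adjusted p = 0.0158, edgeR), as did Tmprss15, with 0 to 125 counts in NWD1Ca libraries (2.53 CPM on average) and none in NWD1 libraries. That mean is 44.8-fold above a floor of 3 counts per NWD1 library, while the lowest NWD1Ca library held no count either. Of 13 other hydrolases these 2 rose and 0 fell, of 12 carriers 0 passed (1 with an unadjusted p under 0.05, where 42.5% of all tested genes had one), and of 16 enterocyte genes 9 rose, led by Fabp1 (4.95 ± 0.68, adjusted p = 0.00012). Of the 12 stem cell markers 4 fell, among them Olfm4 (-2.16 ± 0.56 on the log2 scale, adjusted p = 0.00759). Of 6 tuft cell markers 4 fell, with a median of -1.83. Of 7 goblet cell markers 1 rose, Tff3 (2.64 ± 0.63, adjusted p = 0.00468, edgeR), and 1 fell, Spdef (-1.11 ± 0.34, adjusted p = 0.0192). Of 7 enteroendocrine markers 2 rose, the gut hormone genes Sct (2.71 ± 0.61, adjusted p = 0.00328, edgeR) and Cck (2.92 ± 0.59, adjusted p = 0.0016). In the same list 1 fell, Neurog3 (-1.65 ± 0.46, adjusted p = 0.0115, edgeR). Of 5 proximal markers 2 rose, and of 3 tested distal markers 0 passed. The distal markers summed to 115 to 371 TPM in NWD1Ca libraries, against 37.7 to 225 TPM in NWD1 libraries. The part of any of these markers in the rise of Sis was not tested.

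The scale decides how both comparisons read. On log2(TPM + 1), tested with limma, the median of all tested genes was itself at -0.95 for NWD1VitD and -0.78 for NWD1Ca against NWD1. On that scale Sis stayed above 0, at 1.59 ± 0.71 for NWD1VitD (adjusted p = 0.0574, limma) and 1.39 ± 0.77 for NWD1Ca (adjusted p = 0.134, limma), and the members called were lower: 1 in NWD1VitD, where 64.7% of all tested genes were called, and 2 in NWD1Ca, where 56.6% were. The share of Sis among the hydrolases, which no scaling touches, was 28.4, 34.4 and 23.6% in NWD1VitD libraries and 34.0, 34.5 and 40.2% in NWD1Ca libraries, against 16.3, 8.63 and 13.1% in NWD1 libraries.

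NWD1VitD set beside NWD1Ca compares both additions within a set of libraries. With edgeR 0 of 9 members passed, where 0% of all tested genes did, 1 had an unadjusted p under 0.05 (2.32% of all tested genes), and DESeq2 and limma called 0. The 1 was Mep1a, at 27.3, 55.7 and 60.8 CPM in NWD1VitD libraries, against 23.8, 20.4 and 18.5 CPM in NWD1Ca libraries, without overlap (as 3.6% of all tested genes that were higher) and with a change of 1.42 ± 0.47 (adjusted p = 1, edgeR). Sis differed by 0.37 ± 0.71 (adjusted p = 1). NWD1VitD held both sexes and NWD1Ca only females.

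AIN_VdrKO set beside AIN asks what loss of the vitamin D receptor does on the control diet, between libraries that lie apart on the first component, so that genotype and library set cannot be told apart. Mep1a, the meprin subunit that is also shed, was at 4.32, 14.7 and 9.48 CPM in AIN_VdrKO libraries, against 63.5, 32.5 and 44.3 CPM in AIN libraries, with no overlap. It fell by 2.08 ± 0.48 on the log2 scale (adjusted p = 0.00751, edgeR), which is 4.22-fold lower. It was the 1 member of 9 that passed, where 12.5% of all tested genes did and 5.09% as lower. Its AIN_VdrKO libraries held 107, 338 and 1333 counts of Mep1a. Without AIN 3 the change was -1.94 ± 0.58 (adjusted p = 0.0532, edgeR).

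Lct and Alpi did not overlap between the groups either. Lct was at 4.76, 82.4 and 6.55 CPM in AIN_VdrKO libraries, against 167, 132 and 176 CPM in AIN libraries, with AIN_VdrKO 2 far above the others of its group, and did not pass (-1.77 ± 0.98, adjusted p = 0.256, edgeR). Alpi was at 193, 395 and 309.5 CPM in AIN_VdrKO libraries, against 434, 1108 and 884 CPM in AIN libraries, also without passing. These make 3 of 9 members lower without overlap, where 14.9% of all tested genes were. Sis did not pass, at 738, 2474 and 900.2 CPM in AIN_VdrKO libraries, against 2858, 1732 and 3846 CPM in AIN libraries (-0.69 ± 0.69, adjusted p = 0.556, edgeR). All 9 fitted changes were below 0, with a median of -0.75, where 50.7% of all tested genes were below 0.

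Within each AIN_VdrKO library, Lct was low for the level of Sis, and Mep1a for that of Mep1b. The ratio of Mep1b to Mep1a in TPM was 34.2, 42.8 and 21.9 in AIN_VdrKO libraries, and 2.4 to 15.8 in the 18 other libraries. That of Sis to Lct was 154, 29.9 and 137 in AIN_VdrKO libraries, and 4.86 to 21.7 in the 18 other libraries. No AIN_VdrKO library fell within the range of the rest of the study in either ratio. Both ratios were chosen after the values were seen and have no test. For Lct this holds against Sis and not against every member. In AIN_VdrKO 2 Lct was at 21.1 TPM and Alpi at 278 TPM, against 4.20 TPM of Lct and 140 TPM of Alpi in NWD1 2. AIN_VdrKO held only males, and no member passed for sex in the same fit, with Mep1a at -0.34 ± 0.28 on the log2 scale for male minus female (adjusted p = 0.9997, edgeR). That sex term comes from the groups with both sexes, so it does not measure sex in AIN_VdrKO. The part of sex in the low Mep1a was not tested.

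Of the 13 other hydrolases 1 fell. It was Akp3, a duodenal alkaline phosphatase next to Alpi in the genome, at 6.78, 14.7 and 19.5 CPM in AIN_VdrKO libraries, against 121, 518 and 371 CPM in AIN libraries (-4.31 ± 1.01, adjusted p = 0.00878, edgeR). Alpi and Akp3 both encode alkaline phosphatases, and how reads that match both were counted is not stated, so both levels are uncertain. Of the 12 carriers 1 fell, Slc1a1 (by 2.60 ± 0.42, adjusted p = 0.000659). Of 16 enterocyte genes 1 fell and 12 lay below 0, with a median of -0.78. Of 10 genes of brush border structure 3 fell: Ush1c (by 1.17 ± 0.28, adjusted p = 0.0111), Vil1, which encodes villin (by 1.45 ± 0.45, adjusted p = 0.0421), and Myo1a (by 1.58 ± 0.50, adjusted p = 0.0428). Of 12 transcription factors 3 rose, Klf5 (2.36 ± 0.48, adjusted p = 0.00369), Gata6 (1.47 ± 0.31, adjusted p = 0.00492) and Cdx1 (1.57 ± 0.48, adjusted p = 0.0365), and 1 fell. Of 12 stem cell markers 4 rose, with Znrf3 (1.55 ± 0.40, adjusted p = 0.0149) the smallest in p, and of 7 Paneth cell markers 1 rose, Ang4 (2.92 ± 0.70, adjusted p = 0.00951). Markers of the proximal small intestine summed to 136 to 185 TPM in AIN_VdrKO libraries, against 115 to 182 TPM in AIN libraries, and 0 of 5 passed (2 with an unadjusted p under 0.05, where 27.4% of all tested genes had one). Markers of the distal small intestine and colon summed to 32.3 to 144 TPM in AIN_VdrKO libraries, against 76.6 to 336 TPM in AIN libraries, and 0 of 3 tested passed. The part of any of these in the change of the hydrolases was not tested.

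AINlowVitD set beside AIN asks how lower dietary vitamin D acts, again across the sets. With edgeR 0 of 9 members passed, where 31.3% of all tested genes did. An unadjusted p under 0.05 was found for 1, and for 42.3% of all tested genes. DESeq2 called 0 members and 35.4% of all tested genes, and limma on TPM called 2, both lower, and 50.5%. Dpp4 had the smallest p, at 125, 104 and 194 CPM in AINlowVitD libraries, against 208, 228 and 410.0 CPM in AIN libraries, without overlap (-1.002 ± 0.43, adjusted p = 0.0860, edgeR). Without AINlowVitD 3 it passed (-1.49 ± 0.51, adjusted p = 0.0453). Mep1b was the other member without overlap, at 248, 206 and 269.9 CPM in AINlowVitD libraries, against 367, 281 and 419 CPM in AIN libraries, where 25.3% of all tested genes were lower without overlap. Sis was at 3670.5, 1904 and 3979.8 CPM in AINlowVitD libraries, against 2858, 1732 and 3846 CPM in AIN libraries (0.15 ± 0.66, adjusted p = 0.887), and its sign depended on the scale and on single libraries. Of the 13 other hydrolases 0 passed with edgeR (0 with an unadjusted p under 0.05). Of 12 carriers 1 fell, Slc1a1 (by 1.68 ± 0.40, adjusted p = 0.00456), and of 10 genes of brush border structure 1 fell, Ush1c (by 0.73 ± 0.27, adjusted p = 0.0445). Of 16 enterocyte genes 1 rose, Fabp1 (3.32 ± 0.60, adjusted p = 0.000705). Of 3 tested distal markers 1 rose, Fabp6 (3.45 ± 0.92, adjusted p = 0.00885, edgeR), and the median change of the 3 was 0.0081. With Fabp6 included, the distal markers summed to 266 to 1305 TPM in AINlowVitD libraries, against 76.6 to 336 TPM in AIN libraries.

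AIN_VdrKO set beside AINlowVitD compares loss of the receptor with a low supply of the vitamin, and its groups also lie apart on the first component. With edgeR 0 of 9 members passed, where 3.07% of all tested genes did, 1 had an unadjusted p under 0.05 (20.2% of all tested genes), DESeq2 called 1 (7.31% of all tested genes) and limma 0 (32.1%). That member was Mep1a, at 4.32, 14.7 and 9.48 CPM in AIN_VdrKO libraries, against 43.1, 20.0 and 34.6 CPM in AINlowVitD libraries, without overlap (-1.57 ± 0.47, adjusted p = 0.0722, edgeR). It passed without AINlowVitD 2 (-1.80 ± 0.47, adjusted p = 0.0496). Lct and Alpi did not overlap either, with Lct at 4.76, 82.4 and 6.55 CPM in AIN_VdrKO libraries, against 187, 95.4 and 237 CPM in AINlowVitD libraries. These 3 members were lower without overlap, where 12.8% of all tested genes were. Sis was lower by value, at -0.84 ± 0.69 (adjusted p = 0.514). AIN_VdrKO is compared with AIN and with AINlowVitD here, so both comparisons share its libraries.

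AINlowVitD set beside NWD1Ca and NWD1VitD set beside AINlowVitD, both within a set, gave 0 of 9 members with edgeR, where 0% of all tested genes passed in each. In both, 0 members had an unadjusted p under 0.05, and DESeq2 and limma called 0. Sis differed by 1.31 ± 0.71 between AINlowVitD and NWD1Ca and by -0.94 ± 0.67 between NWD1VitD and AINlowVitD (adjusted p = 1 each, edgeR). Sis had the smallest p of the members in AINlowVitD against NWD1Ca, and Mep1a, at 0.64 ± 0.44, in NWD1VitD against AINlowVitD.

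The members differed in how closely they shared a pattern over the libraries. Each gene's log2 CPM was centred on its mean over the 21 libraries, and the members' mean profile was taken as the common pattern. Mep1b lay closest to that pattern, with a root mean square difference of 0.30, and Anpep (0.37), Alpi (0.41), Treh (0.45) and Enpep (0.52) followed. Dpp4 (0.79), Mep1a (0.80), Sis (0.86) and Lct (0.98) lay farthest from it. Ranked among 10081 candidate genes by this difference, Mep1b came 4th and Anpep 8th, while Dpp4 came 477th, Mep1a 507th, Sis 698th and Lct 1429th, although each member is part of the mean. Between pairs, Anpep and Mep1b were closest, at 0.45, and Lct and Dpp4 farthest apart, at 1.66, followed by Sis and Mep1a at 1.54. The pattern was lowest in NWD1 1 (-2.35), AIN_VdrKO 1 (-1.72), NWD1 2 (-1.66) and NWD2 1 (-1.31), and highest in NWD2 3 (1.92). NWD2 thus held both the highest library of the study and 1 of the lowest.

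Enterocyte genes outside the hydrolases were low in the same NWD1 and NWD2 libraries. Their median was at 6.84, 7.23 and 8.02 log2 CPM in NWD1 libraries, against 9.96, 9.62 and 9.58 log2 CPM in AIN libraries. It was at 7.31 in NWD2 1, against 9.88 and 10.5 in the other NWD2 libraries. The stem cell markers ran the other way, with a median of 7.01, 6.79 and 6.57 log2 CPM in NWD1 libraries, against 5.05, 5.87 and 5.11 log2 CPM in AIN libraries. AIN_VdrKO 2 departed from this, with a hydrolase pattern of 0.51 and a stem cell median of 6.84. All these values come from the same libraries and share their scaling, so they are given as a description.

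**Figure D4:**
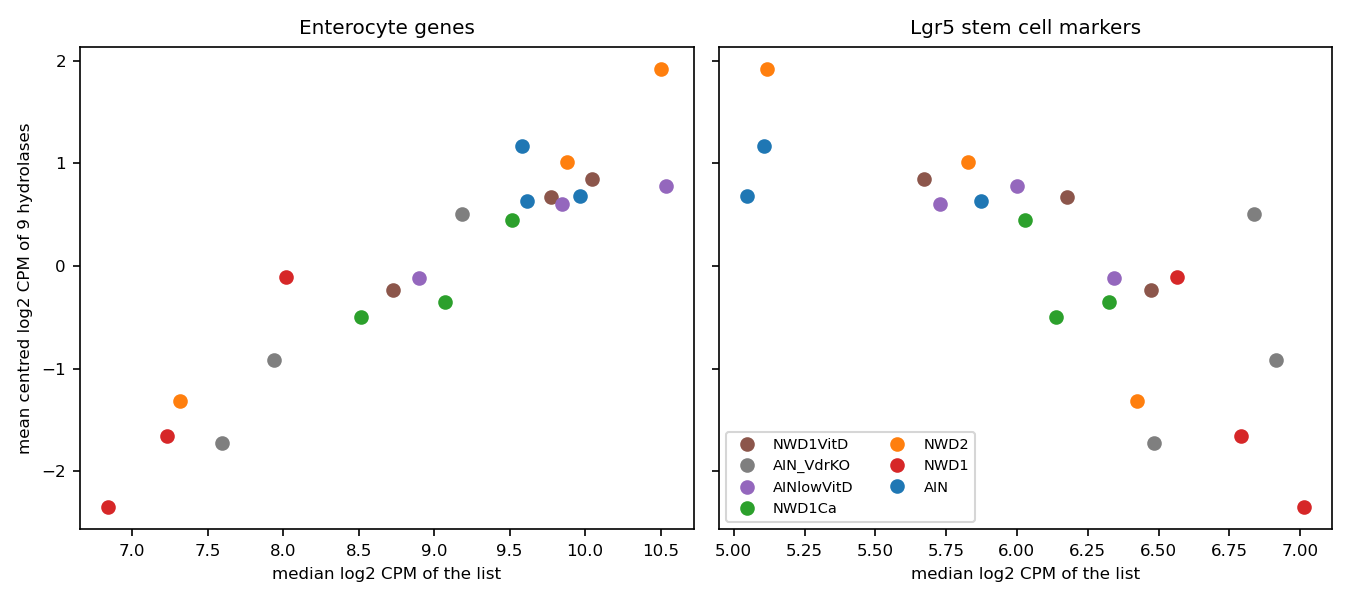
Mean centred log2 CPM of the 9 hydrolases in each library (vertical axis) against the median log2 CPM of 16 enterocyte genes (left) and of 12 Lgr5 stem cell markers (right), with colours for the 7 groups. The lowest NWD1 library lies at -2.35 with an enterocyte median of 6.84 and a stem cell median of 7.01, and the highest NWD2 library at 1.92 with 10.5 and 5.12.

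The 8 genes whose profile lay closest to the common pattern over the 21 libraries, among 10081 candidates, were Mpp1 (0.28), Plekhg6 (0.29), Fmo5 (0.29), Krt20 (0.33), Ces2e (0.33), Slc7a9 (0.36), Slc43a2 (0.36) and Osta (0.37), each value a root mean square difference in log2 CPM. Krt20 is a keratin of mature intestinal epithelium, Ces2e a carboxylesterase, Slc7a9 a carrier of cystine and basic amino acids, and Osta a subunit of the basolateral bile acid exporter. Likeness over these libraries is a description of their levels.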

How the data were processed

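Bulk RNA sequencing (SMART-Seq v4 cDNA, Nextera XT paired-end libraries, per the labels' protocols) was used on 21 libraries. The authors deposited unnormalised read counts per gene (37310 genes, 92 ERCC spike-ins) and TPM values. The submitters' processing notes name build mm9, edgeR, HTSeq 0.6.1 and STAR 2.4.2a, with no settings and no annotation release. The deposited TPM are the deposited counts divided by a gene length and rescaled: over 6979 genes with more than 200 counts in every library, the centred log2 ratio varied by an SD of at most 6.44e-10. The kit does not mark strand, so overlapping antisense genes cannot be told apart.

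Counts were tested with edgeR 4.0.16 (R 4.3.3; TMM, filterByExpr, quasi-likelihood F test, two-sided), with all 21 libraries in 1 fit of group and sex. Spike-ins stayed out of the library sizes. Of 37310 genes 16050 were tested, all 9 members among them, and adjustment (Benjamini-Hochberg, threshold 0.05) ran over all of these in each of 11 comparisons. The SE is the absolute log2 fold change divided by the root of F. Errors are over 3 libraries per group. The labels do not say more of what a replicate is than a mouse sample of its group, and p-values measure the spread between these libraries. Counts without molecular identifiers include PCR copies. The code was tested on simulated data.

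Alternatives were other size factors, no filter, DESeq2 1.42.0, limma 3.58.1 on log2(TPM + 1), a replicate block, no sex term, the compared groups alone, each library left out, and 2 sets of libraries left out. These sets were both NWD1 libraries high in spike-ins, and AIN 1, AIN 2 and NWD1 1, which lay apart on the first component. The members and the 13 other lists were chosen with earlier results of these data known. Named are each member past the threshold, Sis, otherwise the member with the smallest p, and up to 4 genes of a list past the threshold; members and list genes given with levels only, and the ratios, were chosen after their values were seen. Sequences are from RefSeq (GRCm38.p6), 8 of 9 members having an entry, and no coordinate of the files is used. Values of a few genes of the lists are not reported here.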

Additional observations from a re-analysis of the deposited data

How the results depend on the processing

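Whether replicate numbers pair the libraries was not settled. Same-numbered libraries of 2 groups correlated in their deviations above 0.1 in 19 of 63 pairs (-0.30 to 0.49). Libraries of unlike number were not compared, so this count can neither show nor exclude pairing. With the replicate block 1 hydrolase passed in AINlowVitD against AIN (Dpp4, -0.97 ± 0.36, adjusted p = 0.0496, edgeR) in place of 0, and 6 in NWD1VitD against NWD1 in place of 4. No other call of a member changed under the block.

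Without the filter on low counts the members called were 7 (1 with it) in NWD1 against AIN (3.47% of all genes), 8 (0) in NWD2 against NWD1 (3.02%), 2 (0) in AINlowVitD against AIN (17.6%), 2 (1) in AIN_VdrKO against AIN (8.55%), 2 (1) in NWD1Ca against NWD1 (18%), 7 (4) in NWD1VitD against NWD1 (23.2%), 2 (0) in NWD1VitD against NWD1Ca (0.419%) and 2 (0) in AIN_VdrKO against AINlowVitD (5.19%). DESeq2 called 2 in NWD1 against AIN (4.93% of all genes), 3 in NWD2 against NWD1 (2.14%) and 1 in AIN_VdrKO against AINlowVitD (7.31%); without a sex term that last count was also 1. limma on TPM called 2 in AINlowVitD against AIN (50.5%), 2 in NWD1Ca against NWD1 (56.6%) and 1 in NWD1VitD against NWD1 (64.7%), all lower. With only the compared groups fitted the count was 0 in NWD1 against AIN (0.0894%), 1 in AINlowVitD against AIN (30.5%), 0 in AIN_VdrKO against AIN (2.62%), 2 in NWD1Ca against NWD1, 1 of them lower (40.5%), and 6 in NWD1VitD against NWD1 (38.6%). Without both NWD1 libraries high in spike-ins it was 0 in NWD1 against AIN (0.0059%), 0 in NWD1Ca against NWD1 (28.8%) and 0 in NWD1VitD against NWD1 (29.2%). Without AIN 1, AIN 2 and NWD1 1 it was 0 in NWD1 against AIN (0%), 1 in AINlowVitD against AIN (31.3%), 2 in AIN_VdrKO against AIN (21.8%) and 1 in NWD1VitD against NWD1 (43.3%). The cause of these moves was not tested, except that fewer libraries entered some fits.

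Leaving out each library in turn gave 0 to 1 members in NWD1 against AIN, 0 to 3 in NWD2 against NWD1, 0 to 1 in AINlowVitD against AIN, 0 to 2 in AIN_VdrKO against AIN, 1 to 1 in NWD1Ca against NWD1, 1 to 5 in NWD1VitD against NWD1 and 0 to 1 in AIN_VdrKO against AINlowVitD. Counts of 0 stayed 0 in the other comparisons. The sign of Sis turned in AINlowVitD against AIN (-0.98 with limma, -0.76 without AIN 1, AIN 2 and NWD1 1, -0.21 without AIN 2, and -0.58 to 1.02 over single libraries left out), in AIN_VdrKO against AIN (0.35 without AIN 3, -1.43 to 0.35 over single libraries), in NWD1VitD against NWD1Ca (-0.0196 without a sex term) and in AIN_VdrKO against AINlowVitD (0.11 with limma, -1.57 to 0.0121 over single libraries). DESeq2 gave no adjusted p for Lct in NWD1VitD against NWD1. Depth did not limit the detection of a member, each having at least 107 counts in a library.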

Other observations

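All 9 hydrolases had a fitted coefficient below 0 for male minus female in the same edgeR fit, between -1.06 ± 0.60 (Lct) and -0.14 ± 0.27 (Dpp4), and none passed (adjusted p = 0.9997 each), where 5 of 16050 tested genes passed for sex. Of the 7 groups, 2 held mice of 1 sex.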
